A study of Homo sapiens with 2 samples.

Results

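The replication histone gene cluster of chromosome 6 was described in a list of chromatin loops from KYSE180 cells, taken as every loop with at least 1 of its bins starting between 26.0 and 27.9 Mb. This rule gave 364 of the 31950 loops of the list, or 1.14%, and 20.5% of the 1777 loops of chromosome 6. KYSE180 is an established cell line of esophageal squamous cell carcinoma (ESCC). The cells were transfected with a non-targeting siRNA and profiled by HiChIP for H3K27ac, in which DNA ends held close together in the nucleus are ligated and the acetylated chromatin is then precipitated, so that read pairs report contacts of active promoters and enhancers. The methods term the listed loops active and p63-associated, after the squamous transcription factor p63, so the list need not hold all such contacts. The 2 libraries of this 1 condition were deposited as 1 list, so no value below has a replicate spread, no test across samples was possible, and intervals (95%) cover counting error only. The list joins bins of 2 kb, called anchors where they have a loop, and its positions are those of hg19, the build that the submitters' processing notes name.

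Replication-dependent histone genes encode the linker histone H1 and the core histones H2A, H2B, H3 and H4, and are transcribed together in S phase to package newly made DNA. They are short, lack introns, and their mRNAs end in a stem-loop in place of a poly(A) tail. Their largest cluster lies on chromosome 6, and it gathers with NPAT and factors of histone mRNA processing in a nuclear structure called the histone locus body. H3K27ac is a mark of active promoters and enhancers, so HiChIP for it can see contacts among histone genes that are being transcribed.

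The annotation used here is on GRCh38.p14, not on hg19, so no gene was placed on the list and the name of the region is background rather than a result. In the RefSeq annotation, 55 histone genes of chromosome 6 follow each other in 4 runs. The runs were set by gene order along the chromosome, so they need not all lie in the region. A pair of genes, H2AC1 and H2BC1, comes first, followed by 4 other genes, SLC17A4, SLC17A3, SLC17A2 and TRIM38. A run of 32 genes from H1-1 to H4C8 comes next, with HFE, a regulator of iron uptake, as the 1 other gene inside it, and it holds 5 H1, 4 H2A, 8 H2B, 7 H3 and 8 H4 genes. After 9 other genes, among them the butyrophilin genes BTN3A2 to BTN1A1, a run of 5 histone genes reaches from H2BC11 to H2AC12. After a further 5 genes, among them ZNF391 and ZNF184, the last run holds 16 genes from H2BC13 to H2BC17. The genes are packed tightly, with 16 of 46 neighbouring 5′ ends within a run (34.8%) less than 2 kb apart, which is the width of 1 bin of the list. An anchor of 2 kb can therefore hold more than 1 promoter.

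The promoters of 4 histone genes of the run from H1-1 to H4C8 are shown as examples, picked by class and position and not by their sequence elements. They are the first H1, H3 and H4 promoters of the run and the H2A promoter of its first H2A and H2B pair that faces away from each other. Each is the 250 bases upstream of the start on GRCh38.p14 from RefSeq, with the letters TATAAA (the TATA box), CCAAT (the CCAAT box, ATTGG on the other strand) and ATTTGCAT (the octamer of H2B promoters, ATGCAAAT on the other strand) in capitals. H2AC6 lies at chr6:26123922-26124171 on the plus strand, H3C1 at chr6:26020201-26020450 on the plus strand, H1-1 at chr6:26017788-26018037 on the minus strand and H4C2 at chr6:26027284-26027533 on the minus strand.
H2AC6: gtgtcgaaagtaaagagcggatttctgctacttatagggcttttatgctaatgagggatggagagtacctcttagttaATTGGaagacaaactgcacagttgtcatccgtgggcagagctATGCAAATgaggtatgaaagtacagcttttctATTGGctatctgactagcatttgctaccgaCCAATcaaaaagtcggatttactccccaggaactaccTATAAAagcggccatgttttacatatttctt
H3C1: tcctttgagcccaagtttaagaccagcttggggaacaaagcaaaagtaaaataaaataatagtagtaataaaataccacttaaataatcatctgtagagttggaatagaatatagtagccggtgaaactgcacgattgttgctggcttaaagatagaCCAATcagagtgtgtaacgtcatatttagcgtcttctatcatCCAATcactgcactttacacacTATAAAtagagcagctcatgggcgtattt
H1-1: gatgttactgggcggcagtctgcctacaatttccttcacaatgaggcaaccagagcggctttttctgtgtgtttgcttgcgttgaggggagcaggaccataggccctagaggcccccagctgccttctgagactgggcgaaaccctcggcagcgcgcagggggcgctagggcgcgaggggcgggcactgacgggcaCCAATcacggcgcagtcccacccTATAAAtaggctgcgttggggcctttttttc
H4C2: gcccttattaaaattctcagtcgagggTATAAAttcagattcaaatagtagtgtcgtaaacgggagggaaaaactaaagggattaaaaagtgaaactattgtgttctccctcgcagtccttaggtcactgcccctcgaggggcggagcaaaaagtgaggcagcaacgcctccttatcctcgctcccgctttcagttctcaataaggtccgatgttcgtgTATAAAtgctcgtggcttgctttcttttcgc
The H2AC6 sequence is also the promoter of H2BC4, which is read the other way from a start 246 bases away. It is 1 of 9 H2A and H2B pairs that face away from each other with starts 194 to 248 bases apart, and 7 of the 9 hold the octamer.

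Of the 50 histone genes with a promoter in the table, 33 (66.0%) held TATAAA in these 250 bases on either strand, against 11.1% of all 27305 genes. CCAAT was present in 43 (86.0%) against 33.0% of all genes, and the 7 without it were all H4 genes, of which 3 of 10 held it. The octamer was present in 22 (44.0%) against 1.66% of all genes. It was found in 9 of 11 H2A and 12 of 15 H2B promoters, in 1 of 8 H3 promoters, and in 0 of 6 H1 and 0 of 10 H4 promoters. An H2A and an H2B gene that face away from each other share these bases, so 1 match can be counted for both genes. These matches describe letters in the sequence and not binding. Members of 1 histone class are close copies of each other, and whether reads of such copies were left out of the list was not tested.

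By rule the region has 2 parts, at 26.0 to 26.3 Mb (the first part) and at 27 to 27.9 Mb (the second part), on either side of a gap. Within the first part there were 107 loops and within the second part 92. Between the parts there were 35 loops, over spans of 824 to 1822 kb. A further 37 loops joined the first part to the gap, 12 joined the gap to the second part, 23 lay within the gap, and 58 left the region.

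**Figure D1:**
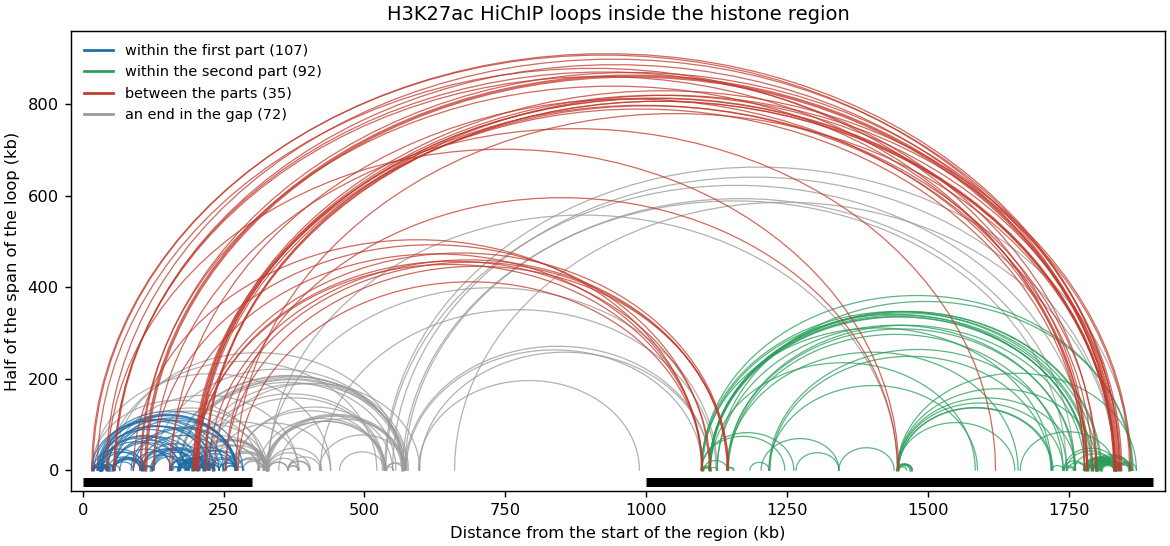
Loops with both bins in the histone region, drawn as arcs over the distance from the start of the region (x axis, kb), with arc height giving the span of the loop divided by 2 (y axis, kb); thick arcs have 2 contacts and black bars mark both parts. The 35 loops between the parts (red) arise from many bins of the first part (blue arcs) and gather at both sides of the second part (green arcs).

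Most member loops rested on a single contact. In all, the 364 loops held 382 contacts, and 18 of them (4.95%, Wilson interval 3.15 to 7.68%) had 2 contacts, with none above 2, against a background of 3.36% of all loops with 2 or more. The interval includes the background. Of these 18 loops, 7 lay within the first part and 8 within the second part. Among members spanning 50 to 200 kb the share was 6.85% (2.96 to 15.1%, 5 of 73 loops) against 2.48% (2.18 to 2.81%) in the list. The shorter members, of 10 to 50 kb, had 8.87% (5.03 to 15.2%) against 7.26%. At 200 to 1000 kb the share was 1.06% (0.188 to 5.78%, 1 loop) against 1.19%. At 1000 to 5000 kb it was 1.37% (0.242 to 7.36%, 1 loop) against 0.322%. None of the 58 loops that left the region had 2 contacts, which allows a share of up to 5.17% when 3 loops are taken as the limit of a count of 0.

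Coverage was higher here than in the list. It is given for the lower of the bins of each loop (the first bin) and was read as the number of read pairs at that bin, since the list does not name its columns. First bins had a median coverage of 33 in the first part (interquartile range 19 to 44, 55 bins) and of 33 in the second part (11 to 50, 47 bins). In the whole list the median was 12 (8 to 20), and in the neighbouring 28 to 34 Mb of chromosome 6 it was 18. Depth thus differed from the list in the same direction as the counts of loops below, and its part in them was not tested. Across first bins, loops and coverage had a Spearman rho of 0.697 in the region (123 bins) and 0.471 in the list (21636 bins), given as a description because bins share reads.

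In windows of 100 kb, the first part had 72, 87 and 94 loops with an end in its 3 windows. The 94 loops at 26.2 to 26.3 Mb were reached by 0.107% of the 9341 windows of the list with an anchor, whose median was 3 and maximum 197. The second part was uneven. Its window at 27.1 to 27.2 Mb had 44 loops and its last windows, at 27.7 to 27.8 and 27.8 to 27.9 Mb, had 58 and 89, while the windows from 27.2 to 27.7 Mb had 2 to 16. The gap had 42 loops next to the first part, 34 at 26.5 to 26.6 Mb, and 0 or 1 in each window from 26.6 to 27 Mb. The second part was therefore also read as a lower group (27 to 27.3 Mb), a middle stretch (27.3 to 27.7 Mb) and an upper group (27.7 to 27.9 Mb), a split made after the values were seen.

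**Figure D2:**
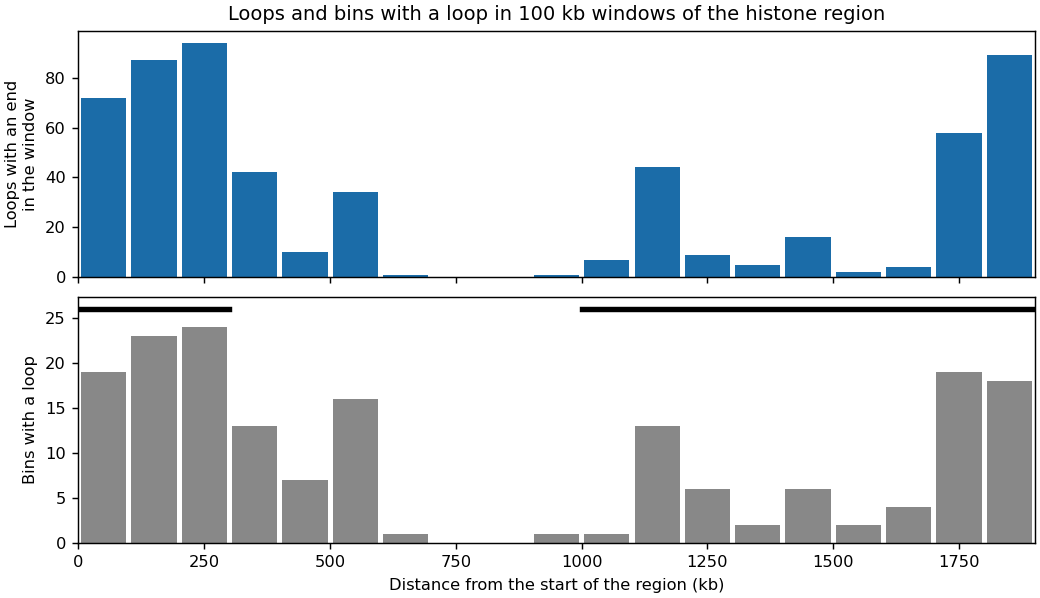
Loops with an end in each 100 kb window (upper panel) and bins with a loop (lower panel) by distance from the start of the region (x axis, kb), with black lines in the lower panel marking the first and second part. Loops were densest in the 3 windows of the first part (72 to 94) and in the last 2 windows (58 and 89), with almost none from 600 to 1000 kb.

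Bins of the region were connected far more often than bins elsewhere. In the first part 20 of 66 anchors (30.3%, 20.6 to 42.2%) had 6 or more loops, and in the second part 15 of 71 (21.1%, 13.2 to 32.0%), against a background of 3.05% of all anchors. In the 28 to 34 Mb neighbourhood the share was 6.23% (3.98 to 9.63%). The median was 4 loops per anchor in the first part, 2 in the second part, 3 in the upper group and 1 in the list. Anchors with a single loop made up 12.1% of the first part, 32.4% of the second part and 59.2% of the list. Coverage moved with these shares. Among first bins with a coverage of 30 or more, 35 of 63 in the region (55.6%, 43.3 to 67.2%) had 6 or more loops against 683 of 2596 in the rest of the list (26.3%, 24.7 to 28.04%), at median coverages of 44 and 41. Bins share loops and reads, so these intervals are too narrow.

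**Figure D3:**
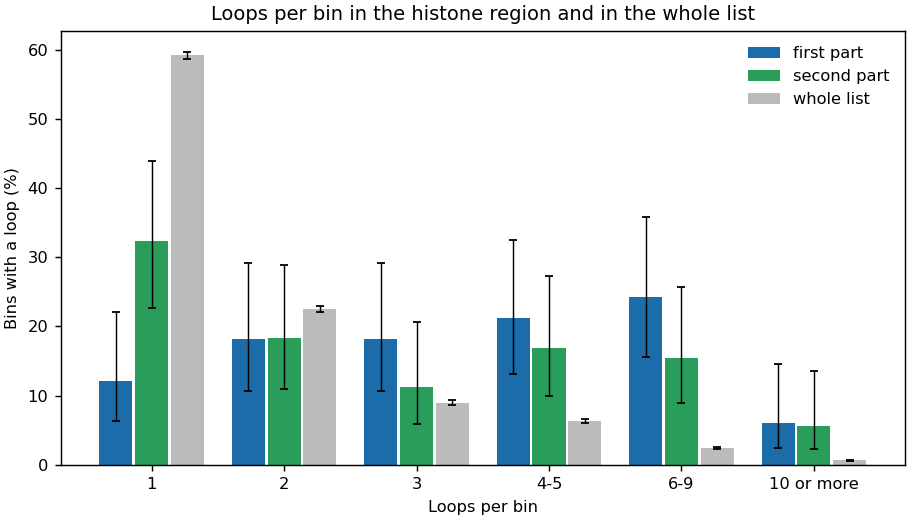
Share of bins with a loop (y axis, %) by their number of loops (x axis) in the first part (66 bins), the second part (71 bins) and the whole list (34902 bins), with 95% Wilson intervals. Bins with 1 loop were fewer and bins with 6 or more loops were more frequent in both parts than in the list.

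The most connected bin was 27832001 to 27834000 in the upper group, with 23 loops and 26 contacts at a coverage of 87. As many loops were found at 0.0201% of all anchors. Its partners lay in the second part for 11 loops, in the first part for 5, in the gap for 2 and above the region for 5, and its farthest partner was 1816 kb away. The most connected bin of the first part, 26172001 to 26174000, had 20 loops at a coverage of 82 and a different reach. Its partners lay in the first part for 15 loops and in the gap for 5, none was in the second part, and the farthest was 400 kb away. The bin 26272001 to 26274000 had 17 loops at a coverage of 69, and the bin 27800001 to 27802000 had 15 at a coverage of 68. The bin with the highest coverage of the region, 26204001 to 26206000 at 106, had 7 loops. The gap held a well-connected bin as well, 26328001 to 26330000, with 13 loops at a coverage of 34, of which 6 ended in the first part and 1 in the second part.

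Touching anchors were merged into stretches, each a run of adjacent bins with loops. The first part had 20 stretches with a median length of 6 kb, of which 7 (35.0%) were 8 kb or longer, against a background of 2.62% of all stretches. In the 28 to 34 Mb neighbourhood it was 12 of 151 (7.95%), and in the gap 3 of 18 (16.7%). The second part had 33 stretches, of which 4 were 8 kb or longer, and all 4 lay in the upper group. A stretch of the first part had a median of 10 partner stretches. One of the second part had a median of 2, as in the list, and one of its upper group 8. The longest stretches were 26194001 to 26210000, with 44 loops to 24 partners, and 27830001 to 27846000, with 66 loops to 32 partners, each 16 kb long.

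Stretches of 1 part were joined with each other to different degrees. Of the 190 possible pairs of stretches in the first part, 67 (35.3%, 28.8 to 42.3%) shared at least 1 loop. In the second part it was 54 of 528 (10.2%, 7.92 to 13.1%), and in its upper group 18 of 45 (40.0%, 27.02 to 54.55%). These shares were not matched by distance, and no share of the list stands beside them. The pair with most loops was 27798001 to 27810000 with 27830001 to 27846000 in the upper group, with 14. Joined through any number of steps, 66 of the 71 stretches of the region formed 1 connected group, which held all 20 of the first part, all 18 of the gap and 28 of the 33 of the second part. The first part remained 1 group of 20 by its own loops alone. With only loops of 2 contacts, 29 stretches were left in 11 groups, the largest of 6, so the single network rested on loops with 1 contact.

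Many close bins give many possible pairs, so loops were also counted as a share of the pairs of anchors that could be joined, and set against the share in the whole list at the same distance. Within the first part 107 of 2011 pairs were joined (5.32%, 4.42 to 6.39%), which was 0.887 times (0.727 to 1.07) the number at the list's share. Within the second part the ratio was 1.10 (0.883 to 1.34), and within the upper group 1.03 (0.762 to 1.37). All 3 intervals include 1, so over all distances within a part an excess per pair was not detectable. Matching by coverage as well kept only anchors that are the first bin of a loop, since the others have no listed coverage. In this form the ratio within the first part was 0.662 (0.531 to 0.815), on 88 of 1395 pairs. Ratios below 1 were also found within the 28 to 34 Mb neighbourhood. There the ratio was 0.805 (0.718 to 0.900) by distance, and 0.802 (0.692 to 0.924) with coverage matched. A bin enters the list only with a loop, so bins without one are not among the possible pairs, here or elsewhere, and the effect of this on the ratios was not tested. The longest distances differed. At 200 to 300 kb within the first part 4.84% of pairs were joined (2.57 to 8.94%, 9 of 186) against 2.10% (2.03 to 2.18%) in the list. At 500 to 800 kb within the second part 2.22% were joined (1.39 to 3.52%, 17 of 767) against 0.676% (0.649 to 0.705%).

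**Figure D4:**
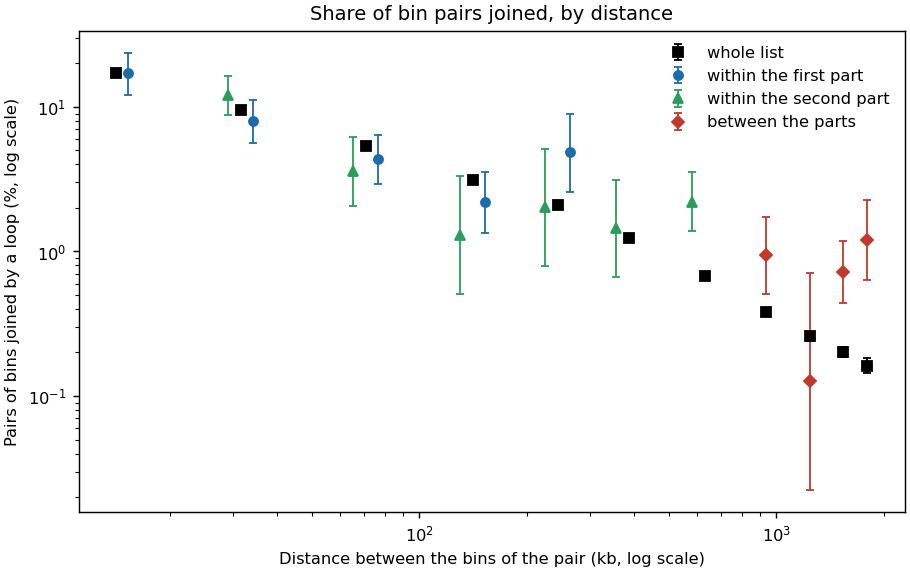
Share of bin pairs joined by a loop (y axis, %, log scale) against the distance between the bins (x axis, kb, log scale), with 95% Wilson intervals, for the whole list (black), both parts and the pairs between them, in classes of at least 100 pairs and with points of the parts shifted sideways for legibility. Within the parts the list lies inside the intervals except at 200 to 300 kb in the first part and 500 to 800 kb in the second part, whereas 3 of the 4 classes between the parts lie above it.

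Between the parts the share of joined pairs was above that of the list. Of 4686 possible pairs 35 were joined (0.747%, 0.538 to 1.04%), where the list's share at the same distances, 0.242%, gives 11.4, a ratio of 3.08 (2.15 to 4.28). With coverage matched as well, among bins with a listed coverage, the ratio was 2.92 (1.99 to 4.12, 32 of 2585 pairs). Against chromosome 6 alone, with all bins, it was 2.38. That background holds the members themselves, 20.5% of the loops of chromosome 6, which lowers this ratio and the others against chromosome 6 given below. By how much was not tested. In the 28 to 34 Mb neighbourhood 11 of 12010 pairs at these spans were joined (0.0916%, 0.0511 to 0.164%). The ratio was highest for the upper group, where 22 of 2442 pairs with the first part were joined, at 4.77 (2.99 to 7.23), or 3.80 (2.32 to 5.87) with coverage matched and 2.87 against chromosome 6 alone. It was 2.19 (1.05 to 4.03, 10 loops) for the lower group and 1.37 (0.282 to 3.99, 3 loops) for the middle stretch. The intervals of these 3 groups overlap.

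A ratio above 1 was also found inside the second part. The lower and upper groups, 452 to 772 kb apart, were joined in 17 of 740 pairs, a ratio of 3.33 (1.94 to 5.33). It was 3.15 (1.68 to 5.38) with coverage matched and 2.68 against chromosome 6 alone. These are largely the same loops as those counted above at 500 to 800 kb within the second part. The middle stretch between them was joined to the lower group at a ratio of 1.11 (0.361 to 2.59, 5 loops) and to the upper group at 0.647 (0.260 to 1.33, 7 loops). The gap was joined to the first part at 0.736 (0.519 to 1.02, 37 loops) and to the second part at 1.16 (0.600 to 2.03, 12 loops). With coverage matched, the latter was 2.24 (1.12 to 4.0). That value rests on 11 of 987 pairs in place of 12 of 2698, so both forms compare different bins. The lower group, middle stretch and upper group were set from the loops per window of the same list, so these values describe them and are no test of a difference among them. Pairs that share a bin are not independent, so these intervals are too narrow.

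**Figure D5:**
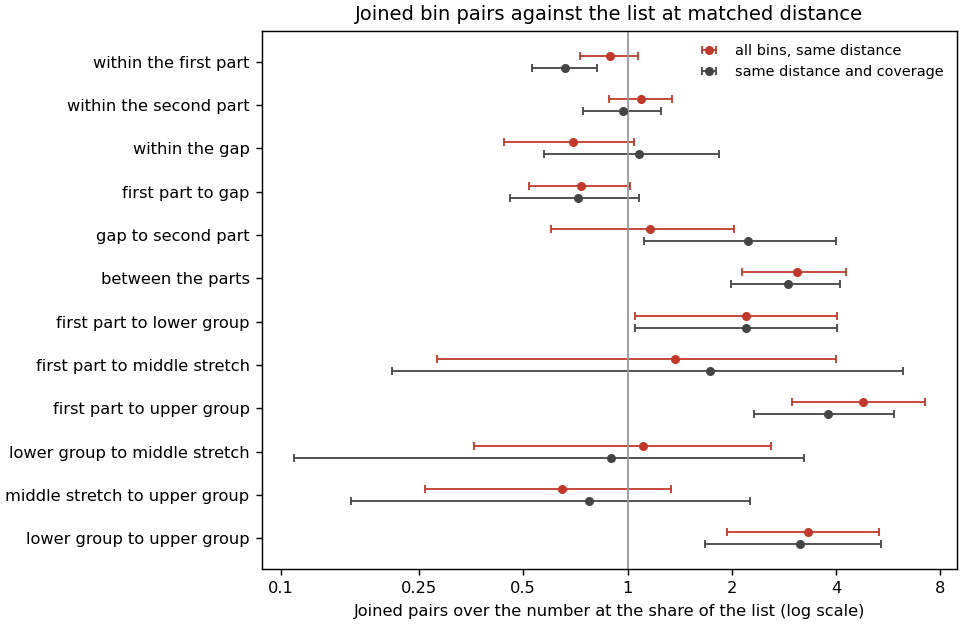
Joined bin pairs divided by the number expected at the share of the whole list (x axis, log scale; the line marks 1), matched by distance (red) or by distance and coverage (grey), with 95% Poisson intervals; lower group, middle stretch and upper group are 27 to 27.3, 27.3 to 27.7 and 27.7 to 27.9 Mb. Grey points hold only bins with a listed coverage. The intervals of the pairs between the parts, the first part with the lower and upper groups, and the lower with the upper group lie above 1 in both forms.

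The 35 loops between the parts held 36 contacts and were spread over many bins. They used 27 of the 66 anchors of the first part (40.9%) and 23 of the 71 of the second part (32.4%), and 1 and 2 of these bins, respectively, had no other loop. Of the 35 loops, 22 ended in the upper group, 10 in the lower group and 3 in the middle stretch. The stretch 26194001 to 26210000 sent 10 of them, and the stretch 27830001 to 27846000 received 12. The bin 26200001 to 26202000 had 3 such loops, to 27100001 to 27102000, 27114001 to 27116000 and 27860001 to 27862000, at a coverage of 15. The 1 loop with 2 contacts joined 26112001 to 26114000 with 27836001 to 27838000, over 1724 kb and at a coverage of 7. In the list 7 of 2471 loops of the same range of span (0.283%) had 2 or more. Another loop lay within 4 kb at both ends for 4 of the 35 (11.4%, 4.54 to 26.0%) against 40 of those 2471 loops (1.62%). The 4 loops are neighbours of each other in pairs, each counted through the other. One pair starts at 26204001, and the other at 26216001 and 26218001. The interval is therefore too narrow, and the density of anchors was not matched.

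Loops also left the region, mostly upwards from the second part. Of the loops with an end in the second part 38 of 177 (21.5%, 16.1 to 28.1%) ended outside, against 17 of 196 (8.67%, 5.49 to 13.5%) for the first part. The second part ends at the border of the region, while loops of the first part to the gap count as inside. The share that stayed within the own part was 52.0% (44.7 to 59.2%) for the second part and 54.6% (47.6 to 61.4%) for the first part. Of the 38 loops, 34 ran to higher positions, as far as 32790000, and 23 of them ended between 28 and 29 Mb. These 23 were 1.69 times (1.07 to 2.54) the number at the list's share for that distance. The first part had 5 loops to the same megabase, at 1.79 times (0.580 to 4.17). Loops spanning 1 Mb or more made up 73 of the 364 members (20.1%, 16.3 to 24.5%) against a background of 11.7% of all loops, and 26 of the 73 joined the parts while 40 left the region. A long loop can enter the members by 1 end alone, as these 40 did, so the rule itself raises the share of long loops. The background was not selected in this way, so no excess of long loops can be read from these shares. Loops between the parts cannot be shorter than the 700 kb that separate them.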

How the data were processed

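H3K27ac HiChIP was done in KYSE180 cells treated with a non-targeting siRNA, in 2 libraries. HiC-Pro served the authors for alignment and filtering, and FitHiChIP (Peak-To-All mode) for calling loops that the methods term active and p63-associated. How p63 entered the calling is not given in the sources used here. They then dropped loops lacking H3K27ac at an end and deposited 1 list. Versions and thresholds are not given in the sources used here. Its 2 unnamed columns are raw counts as deposited. One was taken as the contacts of a loop and the other as the coverage of its first bin, from the column order of FitHiChIP and from the values, since contacts exceeded coverage in 0 of 21636 first bins. The coverage of these bins summed to 368661 (3982 in the region), and the depth of each library is unknown.

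The rule was applied to the start of each bin. The members and the lists were chosen with earlier results of these data known. Possible pairs were all pairs of anchors 10 kb to 5 Mb apart, and the number at the list's share was summed over 53 classes of distance on autosomes and X. Intervals (95%) are Wilson intervals for shares, and for ratios exact Poisson intervals of the joined number. The ratio of joined pairs by distance was tested on loops simulated on the observed anchors, with and without an excess planted between the parts. Coverage matching, stretches and the connected groups were not tested in this way. The naming rule placed no gene if the annotation was on another build, so histone genes are named only by class and order, and neighbours and promoters from RefSeq (GRCh38.p14); regulators of histone genes were not placed. Alternatives were a minimum of 2 contacts, a minimum span of 20 kb, ends widened by 50 kb, leaving out the most connected bin of each part, both bins in the region, merging across up to 2 empty bins, coverage matching, a chromosome 6 background and anchors in place of loops. Coverage matching kept only anchors with a listed coverage, in the region and in the list. Splitting the second part at 27.3 and 27.7 Mb was added after seeing the data. Tools were networkx 3.6.1, scipy 1.17.1, pandas 2.3.3, numpy 2.4.6 and matplotlib 3.10.9 under Python 3.11.15.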

Additional observations from a re-analysis of the deposited data

How the results depend on the processing

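Of 116 values recomputed over 9 settings, 87 moved by less than their counting interval or, for counts, by less than 1.5 times, and 29 moved further. Most of the 29 came from keeping only loops with at least 2 contacts, which left 18 member loops, of which 7 lay within the first part, 8 within the second part, 1 between the parts and 0 to outside. Their median span was 30 kb. The joined share was then 7.0% within the first part, 11.1% within the second part and 0.513% between the parts, with ratios to the list of 0.345, 0.675 and 4.37. The ratio of the first part with 27.7 to 27.9 Mb was 7.49, and those of the first part with 27 to 27.3 Mb and of 27 to 27.3 with 27.7 to 27.9 Mb were 0. Anchors with 6 or more loops were 0% in both parts, median coverage was 40 and 44 in the first and second part, stretches of the first part had a median of 1 partner, and the second part had 13 stretches. The ratio between the parts then rests on 1 loop. With spans of at least 20 kb the median span was 222 kb and the joined share within the first part 4.18%. Merging across up to 2 empty bins gave 12 stretches in the first part. Against chromosome 6 alone, a background that includes the members, the ratio of the first part with 27.7 to 27.9 Mb was 2.87. With coverage matched, the ratio within the first part was 0.662. This setting dropped anchors without a listed coverage, and matching itself does not alter a joined share. Among the anchors kept, the joined shares were 5.98% within the second part (61 of 1021 pairs) and 1.24% between the parts (32 of 2585). Counted by anchors, the busiest window held 24 in place of 94 loops. Beyond the dropping of bins, the cause of these moves was not tested. The share of loops with 2 contacts has no value under the minimum of 2 contacts.

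No paired analysis was possible because the list pools the libraries of 1 condition, and leaving out a library was not an option. The depth of the list, mostly 1 contact per loop, limits every ratio to the intervals given.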
